A study of Ovis aries with 18 samples.

Results

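ACSF2 encodes acyl-CoA synthetase family member 2, and its 5 SNPs on chromosome 11 were chosen by their allele shares, because a stretch of 3 of them and a stretch of 2 of them differed in allelic imbalance (AI) in expression. They are all the SNPs that the count table assigns to ACSF2, 5 of 24355 SNPs, in 1 of 5810 genes. The shares, selected on in this way, are described below with no test. Total reads of the gene, whatever the allele, were tested. In heterozygotes they sum the same allele counts, so that test is not independent of the choice.

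Acyl-CoA synthetases join a fatty acid to coenzyme A, the step that commits a fatty acid to oxidation or to lipid synthesis. ACSF2 is a mitochondrial member of this enzyme family and is thought to act mainly on medium-chain fatty acids. Brown adipose tissue, which fills the perirenal depot of the fetal lamb, oxidises fatty acids in its mitochondria to produce heat through uncoupling protein 1 (UCP1). At a heterozygous locus, the reads of the reference allele and those of the alternate allele come from the same cells, and AI is a departure of the reference share from 0.5.

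The samples were perirenal adipose tissue (PRAT) from 18 untreated, wild type, pure bred merino fetuses at 132 days of gestation, 16 labelled female and 2 male, from unrelated ewes mated to a common sire. RNA-Seq reads of each allele were counted at SNPs that, per the paper's methods, were heterozygous in at least 5 fetuses. By the deposited genotype calls, 24244 of the 24355 SNPs had a heterozygous fetus with reads, and only these could be tested for AI. The counts summed to a median of 4486796.5 reads per fetus over all SNPs (range 2970824 to 5334585). There was 1 group and no treatment, so the comparisons are between alleles and between genotypes. The fetus RS929, labelled female, was heterozygous at 29.1% of 244 X chromosome SNPs, against 25.4% and 32.4% in the males and 54.1% to 69.7% in the other females. ACSF2 is autosomal, and results were also computed without RS929.

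Of the brown adipocyte markers, 4 of 6 were in the table. UCP1 stood at 2474 reads per SNP and 1000000 SNP reads of the fetus (RPM per SNP), the median over fetuses, and ranked 6 of 5810 genes from the top. CIDEA, a lipid droplet protein of brown fat, stood at 111, DIO2, which activates thyroid hormone, at 31.9, and the coactivator PPARGC1A at 26.4 RPM per SNP. Of the general adipocyte markers, 3 of 8 were in the table, led by the adipokine ADIPOQ (2488, rank 5) and the lipid droplet coat protein PLIN1 (563, rank 64), with LEP at 24.6 RPM per SNP. The endothelial genes VWF (60.0) and CDH5 (73.5) were present, and STAR of the adrenal cortex stood at 11.7 RPM per SNP. The table held 0 of 3 blood, 0 of 3 skeletal muscle and 0 of 2 kidney markers, which may only mean that those genes had no SNP that passed the filter.

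ACSF2 was among the most abundantly read genes of PRAT. Its median was 1579 RPM per SNP (range 981 to 2149 over 18 fetuses), rank 17 of 5810 genes, where the median gene stood at 14.6. Per-SNP reads are a level per position and not per transcript.

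The SNPs are named SNP1 to SNP5 in order along chromosome 11 of the Oar v3.1 assembly, and each substitution below gives the reference base, the position on that chromosome and the alternate base. SNP1 (C35786289A) was annotated as missense, and SNP2 (G35786362A) and SNP3 (G35788869A) as synonymous; these form the first block. SNP4 (T35807671C) was annotated as missense and SNP5 (G35807754A) as synonymous; these form the second block, 18802 bp further along. SNP1 and SNP2 lie 73 bp apart and SNP4 and SNP5 lie 83 bp apart, so that 1 read pair can be counted at both SNPs of either pair. SNP1 and SNP2 had the same genotype call in 18 of 18 fetuses and are not independent observations.

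Genotypes at the 5 SNPs were unevenly combined. At SNP1 there were 4 reference homozygotes, 9 heterozygotes and 5 alternate homozygotes, and at SNP3 5, 9 and 4. At SNP4 there were 6 heterozygotes and 12 alternate homozygotes, with 0 reference homozygotes. At SNP5 there were 12 reference homozygotes (G/G) and 6 heterozygotes (G/A), with 0 alternate homozygotes. All 6 heterozygotes at SNP5 were alternate homozygotes at SNP4, and all 6 heterozygotes at SNP4 were G/G at SNP5. No fetus was therefore heterozygous at both SNPs of the second block. In homozygotes the other allele took at most 0.215% of the reads at any of the 5 SNPs.

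In the second block every heterozygote had more reads of the reference allele. At SNP5 the reference share was lowest at 0.634, highest at 0.690 and averaged 0.664 ± 0.0223 (SD, n = 6). At SNP4 it ran from 0.514 to 0.574 and averaged 0.544 ± 0.0208 (SD, n = 6). The median reference share over all SNPs of the series was 0.519, above the lowest value at SNP4 and below all those at SNP5. The ranges of the 6 values at SNP5 and the 6 at SNP4 did not overlap, so the block is not uniform. No fetus was informative at both.

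In the first block the mean share of each SNP lay nearer to 0.5, and the SD between fetuses at each SNP was larger than at SNP4 or SNP5. The reference share averaged 0.523 ± 0.0959 (SD, n = 9) at SNP1, 0.490 ± 0.0945 (n = 9) at SNP2 and 0.459 ± 0.0858 (n = 9) at SNP3. At SNP1 it was above 0.5 in 6 fetuses and below in 3, with values from 0.384 to 0.601. Each of the 39 heterozygous values rested on 1875 to 10980 reads. Their 95% Wilson intervals reached at most 0.0213 to either side. The intervals cover counting error only, since the counts carry no molecular identifiers.

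The spread in the first block followed the genotype at SNP5, in the other block. The 3 first-block heterozygotes that were also G/A at SNP5 were RS917, RS930 and RS953. At SNP1 their reference shares were 0.403 in RS917, 0.401 in RS930 and 0.384 in RS953. At SNP2 they were 0.370, 0.371 and 0.355, and at SNP3 0.347, 0.354 and 0.342 in the same order. All of these values lay below 0.5, with the alternate allele higher. The 6 heterozygotes at SNP1 that were G/G at SNP5 had shares of 0.563 to 0.601 at SNP1 (mean 0.586 ± 0.0142, SD) and 0.532 to 0.563 at SNP2 (mean 0.553 ± 0.0139). At SNP3 the 6 G/G heterozygotes lay between 0.483 and 0.539 (mean 0.515 ± 0.0222). The sets did not overlap at any of the 3 SNPs.

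**Figure D1:**
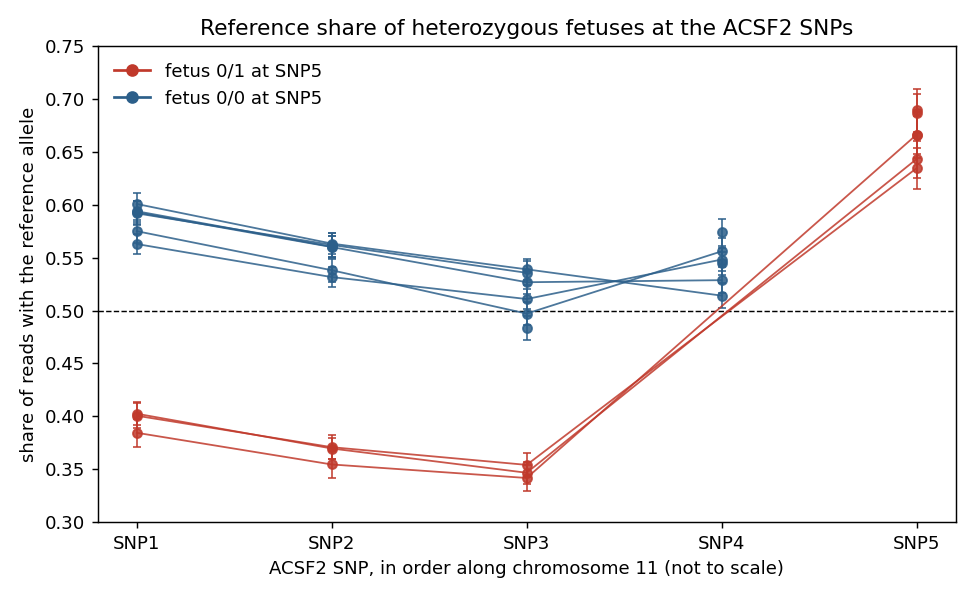
Share of reads with the reference allele (vertical axis) at each ACSF2 SNP (horizontal axis, in order but not to scale), with 1 point per heterozygous fetus, 95% Wilson intervals, and lines joining the SNPs of the same fetus. Red marks fetuses heterozygous at SNP5 and blue those homozygous for its reference allele; at SNP1 to SNP3 the 3 red fetuses lie below 0.5 and apart from the blue ones, while at SNP5 all 6 red points lie between 0.634 and 0.690.

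Averaged over the SNPs of a block, the reference share was 0.493 ± 0.0892 (SD, n = 10 fetuses) in the first block and 0.604 ± 0.0660 (n = 12) in the second. These means differed by -0.111. With reads summed over fetuses the shares were 0.5001 and 0.574. The difference between blocks depends on naming alleles by the reference genome. Taking the higher allele of each fetus instead, the share was 0.575 ± 0.0423 in the first block and 0.604 ± 0.0660 in the second. In the 7 fetuses that were heterozygous in both blocks, the higher allele took 0.585 ± 0.0446 of the reads in the first block and 0.584 ± 0.0616 in the second. Within a fetus the difference averaged 0.000299 ± 0.0299 (SD, n = 7), from -0.0264 in RS953 to 0.0535 in RS910. In RS917, RS930 and RS953 the higher allele took 0.627, 0.625 and 0.640 of the reads in the first block and 0.643, 0.634 and 0.666 at SNP5. In the 4 fetuses heterozygous at SNP4 the corresponding means were 0.550 ± 0.0159 and 0.537 ± 0.0189. The near-zero mean over all 7 fetuses joins unlike sets. With SNP4 the differences averaged 0.0136 ± 0.0345 (SD, n = 4) and went both ways. They were 0.0535 in RS910, 0.0311 in RS943, -0.0131 in RS920 and -0.0173 in RS902. With SNP5 all were negative, averaging -0.0174 ± 0.00846 (n = 3). For these 7 fetuses the data give no phase between the blocks, and which alleles share a chromosome was not determined. RS903, RS940 and RS969 were G/A at SNP5, reference homozygotes at SNP1 to SNP3 and alternate homozygotes at SNP4. In them the allele A of SNP5 therefore lies on a chromosome with the first-block reference alleles and the alternate allele of SNP4.

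Across the series, 38.0% of the 24244 SNPs with a test passed the likelihood ratio test at an adjusted p under 0.05, 28.9% with the reference allele higher and 9.01% with the alternate allele higher. No such count is given for ACSF2, whose shares chose it. That test sums reads over fetuses and ignores their spread. A quasi-binomial test with fetuses as replicates called 24.6% of SNPs. Among 502 SNPs with a median of at least 1000 reads, SNP2, SNP1 and SNP3 ranked 1, 2 and 3 for the variance of the share between heterozygotes relative to that of counting error alone (268, 257 and 219 times). The median of this ratio over the 502 SNPs was 3.11, and SNP4 (11.1) and SNP5 (5.18) ranked 98 and 170. For a given spread the ratio grows with depth, and median reads were 8054, 7685 and 7931.5 at SNP2, SNP1 and SNP3. These ranks rest on the shares that chose the gene and are a description. The range of the mean share over the 5 SNPs of ACSF2 was 0.205, and 13.2% of 4074 genes with at least 2 SNPs that were each heterozygous in 4 or more fetuses had a larger range (median of all 0.0804).

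Reads of ACSF2 also differed between genotypes. These totals include the allele counts of heterozygotes whose shares chose the gene, and the test is not independent of that choice. Reads of both alleles were summed over the 5 SNPs and scaled to 1000000 reads of the fetus over all SNPs (RPM). In the 6 SNP5 heterozygotes ACSF2 had 4906 RPM in RS953, 6045 in RS930, 6050 in RS940, 6159 in RS917, 6549 in RS903 and 6643 in RS969. In the 12 G/G fetuses the lowest value was 7373, the median 8626 and the highest 10744. The groups did not overlap. The means were 6059 ± 620 (SD, n = 6) and 8763 ± 1064 (n = 12) RPM, a log2 difference of -0.53 (SE 0.0813), or 0.693-fold. A two-sided exact permutation test gave p = 5.39e-05, the smallest that its 18564 arrangements allow, and an adjusted p of 0.000593 over 11 comparisons of genotype classes. From total reads of bulk tissue alone, fewer cells of a type and less RNA per cell cannot be told apart. Reads by allele are described below.

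**Figure D2:**
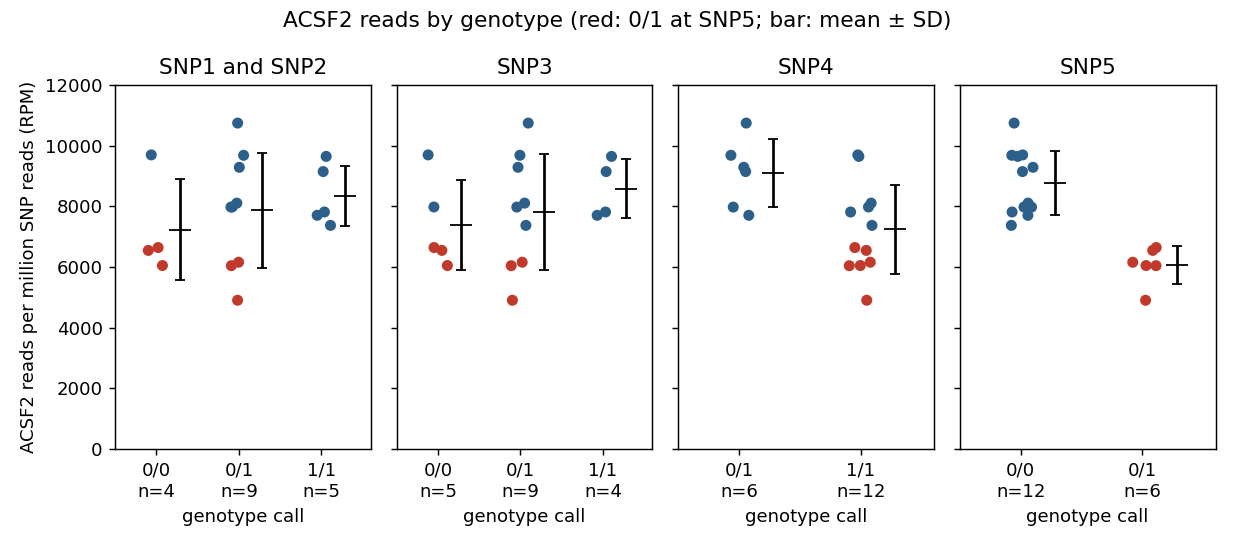
ACSF2 reads of both alleles in RPM (vertical axis) against the genotype call (0/0 homozygous reference, 0/1 heterozygous, 1/1 homozygous alternate), with 1 point per fetus and the mean ± SD beside each class. SNP5 heterozygotes are red in every panel; they lie between 4906 and 6643, below all 12 blue fetuses (7373 to 10744).

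The other 10 comparisons did not pass. SNP1 and SNP2 had the same calls, so their comparisons of summed reads are identical, yet they entered the adjustment separately. At SNP4 the 12 alternate homozygotes had 7247 ± 1469 and the 6 heterozygotes 9090 ± 1121 RPM (log2 difference -0.34, SE 0.112, exact permutation p = 0.0198, adjusted p = 0.109). The alternate homozygotes at SNP4 include all SNP5 heterozygotes. The 6 that were G/G at SNP5 had 8436 ± 988 (7373 to 9695), a range that overlapped that of the SNP4 heterozygotes (7705 to 10744). At SNP1, SNP2 and SNP3 the adjusted p-values of the 9 comparisons ran from 0.471 to 0.743, with log2 differences from 0.06 to 0.23. Single fetuses decided some of these calls. Without RS918 the adjusted p at SNP4 was 0.0436 (log2 difference -0.38) and without RS937 0.0427 (-0.39). Without RS937 the alternate against the reference homozygotes at SNP1 gave a log2 difference of 0.37 (exact permutation, adjusted p = 0.0491).

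The lower level held at each genotype of SNP1 that could be compared. Among heterozygotes at SNP1, the 3 that were G/A at SNP5 had 4906 to 6159 RPM (mean 5704) and the 6 that were G/G had 7976 to 10744 (mean 8962). Among reference homozygotes at SNP1, the 3 that were G/A at SNP5 had 6050 to 6643 and the single G/G fetus, RS937, had 9695. The 5 alternate homozygotes at SNP1 were all G/G at SNP5 and averaged 8337 ± 996. No test was run within these sets.

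Counted per gene copy, the lower reads of the SNP5 heterozygotes lay on the alternate allele. The reference allele G gave 336 ± 34.8 RPM per copy in the G/A fetuses (277 to 380, n = 6). In the G/G fetuses it gave 367 ± 43.3 (299 to 447, n = 12, total reads at SNP5 divided by 2), an overlapping range. The alternate allele A gave 170 ± 24.4 (139 to 193, n = 6), below every value of the reference allele. These values contain the share that chose the gene and are given as a description.

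**Figure D3:**
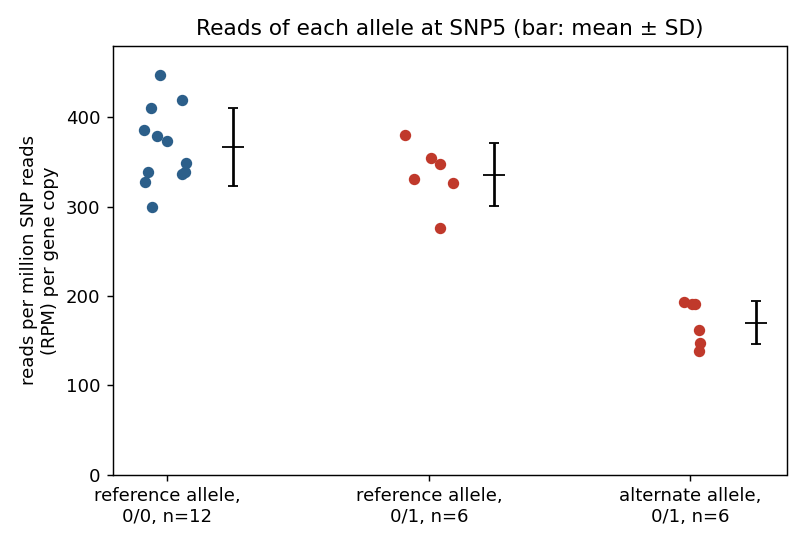
RPM per gene copy at SNP5 (vertical axis) for the reference allele in homozygotes (0/0) and heterozygotes (0/1) and for the alternate allele in heterozygotes, with 1 point per fetus and mean ± SD. Reference allele values lie at 277 to 447 and alternate allele values at 139 to 193.

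In the first block the lower reads of the SNP5 heterozygotes were seen on the reference allele, a description with no test. At SNP2 the reference allele had 536 ± 80.8 RPM in the 3 heterozygotes that were G/A at SNP5 and 1257 ± 146 in the 6 that were G/G. The alternate allele had 928 ± 107 and 1023 ± 167. The ranges of the reference allele (442 to 583 and 1116 to 1494) did not overlap, and those of the alternate allele (805 to 994 and 866 to 1282) did.

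A fit over all genes compared reads between the SNP5 genotypes, and few genes passed. With edgeR's quasi-likelihood test on reads summed per gene, 3 of 5810 genes passed at an adjusted p under 0.05 (0.0516%), 1 of them lower in the SNP5 heterozygotes (0.0172%), and 8.02% of genes had an unadjusted p under 0.05. ACSF2 was the gene that was lower (log2 fold change -0.58, adjusted p = 0.0130) and ranked 2 by p. AK4, a mitochondrial adenylate kinase encoded on chromosome 1, was higher (log2 fold change 0.65, adjusted p = 0.0130), as was CA12, a membrane carbonic anhydrase encoded on chromosome 7 (0.86, adjusted p = 0.0274). This test was added after the data had been seen. It uses the same reads and genotypes of ACSF2 as the permutation test and is not separate evidence for that gene.

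SNP5 shared its genotypes with SNPs spread along chromosome 11. At 29 SNPs of other genes exactly the same 6 fetuses were heterozygous, 27 of them on chromosome 11, in 16 genes over 12.4 Mb (positions 30913295 to 43348744, which hold 419 SNPs of the table), and the remaining 2 in VEZT on chromosome 3. At 23 of the 27 the calls were the same in all 18 fetuses. The effects of SNP5 and of any variant with the same genotypes in these fetuses cannot be told apart. At the 27 SNPs the mean reference share ran from 0.433 to 0.653 (median 0.523), all below the 0.664 of SNP5. The highest after SNP5 were 3 SNPs of ABCC3, an organic anion transporter, and 1 SNP of CD300LG, a receptor of endothelial cells. These 3 SNPs of ABCC3 had means of 0.633 to 0.653, with single fetuses from 0.540 to 0.833, at medians of only 41 to 82.5 reads. Over the 12 SNPs of ABCC3 within 500 kb of ACSF2 the mean share ran from 0.414 to 0.653. The SNP of CD300LG (position 43170771) had 0.637 ± 0.0354 (0.586 to 0.677, n = 6), whereas the other 4 SNPs of that gene among the 27 ran from 0.433 to 0.514. COL1A1, the collagen I alpha 1 chain, had shares of 0.530 ± 0.0140 and 0.536 ± 0.0167 (n = 6) at its 2 SNPs, and the fatty acid synthesis enzyme ACLY had 0.521 ± 0.0262 (n = 6).

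**Figure D4:**
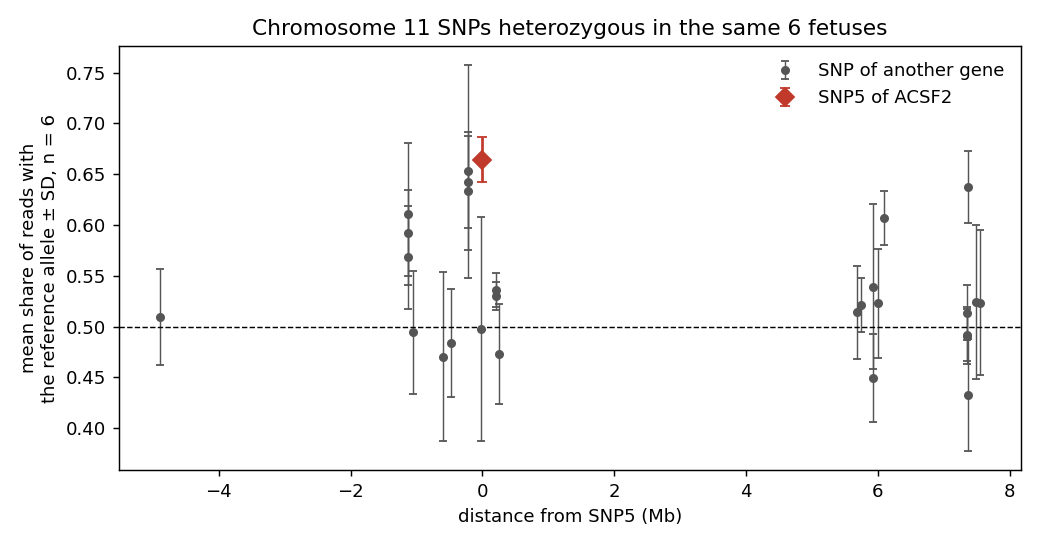
Mean share of reads with the reference allele ± SD over the same 6 fetuses (vertical axis) against distance from SNP5 in Mb (horizontal axis), for SNP5 (red diamond) and 27 SNPs of other genes on chromosome 11 with the same heterozygotes (grey). SNP5 has the highest mean, 0.664, followed by SNPs of ABCC3 at up to 0.653.

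SNPs of 13 genes lay within 500 kb of ACSF2. In the edgeR fit between the SNP5 genotypes 0 of these 13 genes passed, near the 0.0516% of all genes that did. A gene that did not pass is not shown to be unchanged. They held 45 SNPs, of which 18 passed the likelihood ratio test (40.0%, near the 38.0% of all SNPs). The closest was CHAD, which encodes the cartilage matrix protein chondroadherin and lies inside the span of ACSF2 in the RefSeq annotation of the ARS-UI_Ramb_v3.0 assembly. Its 3 SNPs had a median of 41 reads per fetus, 0.523% of the depth of the first block, with mean reference shares of 0.498 to 0.510, and 0 of 3 passed. The library kit does not mark strand, so reads of CHAD and ACSF2 in overlapping sequence cannot be told apart. COL1A1, 194 kb away, was the most deeply read neighbour (median 1512 reads per SNP), and 5 of 5 SNPs passed with the reference allele higher, at mean shares of 0.520 to 0.538, where the median share of all SNPs was 0.519.

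Along the first block the share fell from SNP to SNP in the same fetus. SNP1 was higher than SNP2 in 9 of 9 heterozygotes, by 0.0327 ± 0.00291 (SD), although these SNPs lie 73 bp apart and have the same genotypes. SNP2 was higher than SNP3 in 8 of 8 fetuses heterozygous at both, by 0.0247 ± 0.00898. Both steps were smaller than the gap between the SNP5 genotypes at the same SNPs.

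Homozygotes, which played no part in the choice of the gene, also differed in the depth of neighbouring SNPs. In the 4 fetuses homozygous for the reference allele at all 3 SNPs, the reads at SNP1 divided by those at SNP2 were 0.989 in RS903, 1.01 in RS937, 1.00 in RS940 and 0.994 in RS969. In the 4 homozygous for the alternate allele they were 0.884 in RS905, 0.889 in RS918, 0.865 in RS929 and 0.892 in RS947. The sets did not overlap (log2 difference 0.18, two-sided exact permutation p = 0.0286, the smallest possible with 4 against 4). In heterozygotes the log2 ratio of reference to alternate reads was higher at SNP1 than at SNP2 by 0.19 ± 0.0158 (SD, n = 9).

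SNP3 showed a difference of the opposite sign against SNP2. The ratio of reads at SNP3 to those at SNP2 averaged 0.887 (0.853 to 0.922) in the reference homozygotes and 1.06 (1.04 to 1.09) in the alternate homozygotes (log2 difference -0.26, exact permutation p = 0.0286, adjusted p = 0.0286 over 3 ratios). In heterozygotes the log2 odds differed by -0.15 ± 0.0495 (SD, n = 8). Of the 4 reference homozygotes 3 were G/A at SNP5 and all 4 alternate homozygotes were G/G; RS937, the reference homozygote that was G/G, had ratios of 1.01 and 0.894, within or next to those of the other 3. The depth ratios thus differed between the homozygote classes, in opposite directions at SNP1 and SNP3 relative to SNP2. This comparison does not separate the allele at these SNPs from the genotype at SNP5. The steps in share of the heterozygotes had the same directions, but those shares chose the gene and are a description. Whether read mapping, sequencing or the RNA itself gave these differences was not tested.

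**Figure D5:**
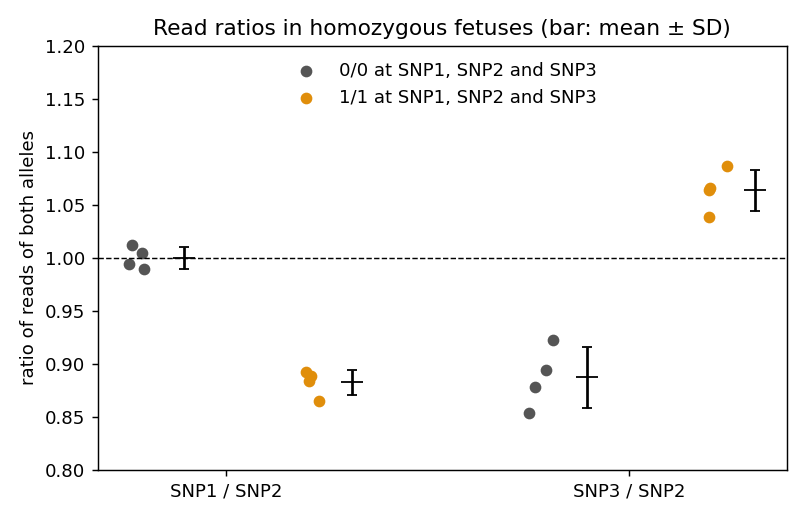
Ratio of reads of both alleles at SNP1 to SNP2 and at SNP3 to SNP2 (vertical axis, which does not start at 0; dashed line at 1) in fetuses homozygous for the reference (0/0, grey) or the alternate (1/1, orange) allele at all 3 SNPs, 4 of each, with mean ± SD. The ratio SNP1 to SNP2 lies at 0.989 to 1.01 in reference and 0.865 to 0.892 in alternate homozygotes, and the ratio SNP3 to SNP2 at 0.853 to 0.922 and 1.04 to 1.09.

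The blocks also differed in depth. Mean reads per SNP were higher in the first block than in the second in 18 of 18 fetuses, by 1.93-fold (log2 ratio 0.95 ± 0.124, SD, n = 18; sign-flip permutation p = 1e-05, the smallest that 100000 resamples can give). That test takes fetuses as replicates at the same few positions. It shows that the ratio repeats between fetuses, and it cannot tell a difference between blocks from one between single positions. The median over fetuses was 7776 reads per SNP in the first block and 4191 in the second. Taking the SNP with the most reads in each block instead of the mean, the log2 ratio was 0.59. The difference was unequal within the second block, where SNP5 had 0.486 ± 0.0306 times the reads of SNP4 in the same fetus. SNP4 had 0.701 ± 0.0677 times the mean reads of the first block.

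Other acyl-CoA synthetases showed AI in both directions. Of a list of 26 family members 14 were measured, and ACSF2 had the highest reads per SNP, followed by ACSS2, the cytosolic acetyl-CoA synthetase (586 RPM per SNP), and ACSL1, a long-chain synthetase of adipose tissue (312). Of 52 SNPs in the other 13 genes, 33 (63.5%, against 38.0% of all SNPs) passed the likelihood ratio test, 20 with the reference and 13 with the alternate allele higher. The median distance of the share from 0.5 was 0.0746 in these SNPs and 0.0339 over all SNPs. With fetuses as replicates 23 of the 52 passed (44.2%, against 24.6% of all SNPs), 15 with the reference and 8 with the alternate allele higher, in 9 genes.

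By the likelihood ratio test 11 of the 13 genes had a SNP that passed, and ACSM1, ACSM5 and AASDH had SNPs in both directions. With fetuses as replicates the SNPs that passed fell from 5 to 2 at ACSS2, from 4 to 2 at ACSM5 and from 3 to 2 at AASDH, and stayed at 6 at ACSM1 and 6 at ACSS3. At ACSS2 the 5 of 6 SNPs that passed the likelihood ratio test all had the alternate allele higher. The SNP with the highest test statistic had a reference share of 0.388 ± 0.0156 (SD, n = 9). ACSM1, a medium-chain synthetase, had 6 of 6 and a share of 0.126 ± 0.0532 (n = 7) at its leading SNP, while ACSS3, a mitochondrial synthetase of short-chain acids, had 6 of 9, all with the reference allele higher, and 0.771 ± 0.0832 (n = 16). ACSL5 and SLC27A2 had 0 SNPs that passed out of 4 and 2. SNPs of one gene in the same fetuses share reads and haplotypes and are not independent.

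The genes whose levels were most like that of ACSF2 over the 18 fetuses were NDUFA12 (Pearson r = 0.845), MRPS31 (0.768), COA1 (0.747), TUFM (0.732) and NDUFS3 (0.703), from log2 RPM among 4090 genes with at least 100 reads (median r -0.138). NDUFA12 and NDUFS3 encode subunits of respiratory complex I, MRPS31 a protein of the mitochondrial ribosome, TUFM the mitochondrial elongation factor Tu and COA1 a cytochrome c oxidase assembly factor. All 5 had lower fitted levels in the SNP5 heterozygotes in the edgeR fit, with log2 fold changes of -0.22 for NDUFA12, -0.31 for MRPS31, -0.36 for COA1, -0.20 for TUFM and -0.23 for NDUFS3. Their unadjusted p-values in edgeR ran from 0.00424 to 0.0188 and their adjusted p-values from 0.465 to 0.549, so none passed. None of the 5 lies on chromosome 11, and the correlation with ACSF2 includes the difference between SNP5 genotypes. Genes chosen by that correlation tend to be lower in the same fetuses, so these fold changes and p-values are a description. The correlations are given as a description, without a p, since all values of a fetus come from the same library and are divided by the same total.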

How the data were processed

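Per the labels, PRAT RNA was sequenced as 100 bp read pairs, and the submitters' processing notes name STAR and GATK 3.4-46. The deposited table holds, per SNP and fetus, the authors' counts of reference and alternate reads on Oar v3.1 and a genotype call; its columns of test statistics, p-values, the higher allele and the pooled reference share were not used. The column spelled PS910 was taken as RS910.

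The members, gene lists and tests were chosen with earlier results of these data known, and the edgeR fit, the homozygote ratios and the settings without males or with first-block reads alone were added after the data had been seen. Reference shares were means over heterozygotes. Calls used the Poisson likelihood ratio test on summed reads with Benjamini-Hochberg adjustment at 0.05, or a quasi-binomial F test (limma 3.58.1). RPM (reads per 1000000 SNP reads) were tested on the log2 scale, with no pseudocount, by exact permutation, and all genes with edgeR 4.0.16. The 18 fetuses were the replicates; flow cells of single libraries are not given in the sources used here. Named genes were the synthetase list, neighbours within 500 kb, the 5 genes most correlated with ACSF2 and cell type markers. Gene names were matched to RefSeq.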

Additional observations from a re-analysis of the deposited data

Results flagged for a closer look

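Of 14 groups of 4 to 10 fetuses examined, 2 held a value far from the rest, and chance gives about 1 in 20. RS937, with 9695 ACSF2 RPM, stood above the other 3 reference homozygotes at SNP1 (6050 to 6643); it is the only one of them that is G/G at SNP5. RS953, with 4906 RPM, stood below the other 5 heterozygotes at SNP5 (6045 to 6643), and the difference between SNP5 genotypes kept its direction and its side of the threshold without it.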

How the results depend on the processing

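Leaving out each fetus in turn, the log2 difference in ACSF2 reads between SNP5 genotypes ran from -0.56 to -0.47 (adjusted p 0.000889 to 0.00178), and it stayed past the threshold in each of the other settings tried: size factors in place of totals (-0.58), reads of SNP5 alone (-0.54), reads of SNP1 to SNP3 alone (-0.50), no log scale, and without RS929 (-0.55) or the 2 males (-0.54). The number of genotype comparisons that passed was 1, but 2 when each SNP's own reads were used and from 1 to 4 when a fetus was left out. The cause was not tested. The count of 4, without RS937, includes the same result at SNP1 and at SNP2, whose calls are identical. With each SNP's own reads SNP4 passed (-0.50, adjusted p = 0.0160) and the differences at SNP1 turned negative, to -0.0388 for heterozygotes against reference homozygotes, -0.0461 for alternate against reference homozygotes and -0.0073 for alternate homozygotes against heterozygotes. At SNP3 heterozygotes against reference homozygotes gave -0.000114 without RS902 and -0.00401 without RS940, within a range of -0.00401 to 0.166 when a fetus was left out; none of these reversed differences passed a test. Calls over all SNPs fell from 9201 to 5957 under the quasi-binomial test, which counts the spread between fetuses, and were 7401 to 10901 under the other 4 settings. Leaving out a fetus, the block shares ran from 0.484 to 0.508 and from 0.596 to 0.612 (0.5001 and 0.574 from summed reads), and the log2 depth ratio between blocks from 0.93 to 0.96; with the SNP of most reads in each block it was 0.59, against 0.95 with block means. The size factor setting shared 4 of the 5 genes most like ACSF2. No fetus was homozygous for the reference allele at every SNP, so that depth setting gave no value. Precision is limited by 6 heterozygotes at each SNP of the second block.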
